A study of Mus musculus with 17 samples.

Results

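The nuclear genes for the machinery of oxidative phosphorylation were described in CD8 T cells sorted from mouse lung tumours. Rows of the count table were kept when the symbol started with Nduf, Uqcr or Atp5, when it named a Cox4 to Cox8 gene, or when it was Sdha, Sdhb, Sdhc, Sdhd or Cycs. The names matched 111 of 27240 symbols. Of these, 14 pseudogene symbols were dropped and 6 fell under a mean CPM of 1 (CPM, a gene's counts as a share of the library total, scaled to the same depth) over the 17 libraries, which left 91 genes. They comprised 39 genes of complex I, 8 complex I assembly factors (the Ndufaf genes), 4 of complex II, 8 of complex III, cytochrome c (Cycs), 14 of complex IV and 17 of complex V. The rule itself uses names and the mean level, not a difference between groups. The lowest genes kept were Cox6b2 at a mean of 1.08 CPM and Ndufaf6 at 3.87 CPM, and the highest of the 6 dropped for a low mean were Cox7a1 at 0.504 CPM and Ndufb4c at 0.223 CPM.

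Bulk RNA-seq libraries fell into 4 groups by genotype and site. WT mice gave 5 libraries from core-enriched tumour tissue (macroscopic nodules) and 2 from rim-enriched tissue (parenchymal nodules). Mice lacking endothelial PDL1, labelled KO and called PDL1DEC in the design text, gave 6 core-enriched and 4 rim-enriched libraries. The sources used here give neither the tumour model nor the Cre driver nor the animals' ages, and the deletion lies in endothelium, so no transcript of the sorted T cells checks it. One WT core library is labelled as a pool, and the identifiers F322, F86 and O occur at both sites in KO. Nothing states that libraries came from separate animals, so p-values measure the spread between these libraries, which may be partly technical.

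Oxidative phosphorylation is the process by which mitochondria turn the electrons of NADH and succinate into ATP. Complex I takes electrons from NADH and complex II from succinate, complex III passes them to the mobile carrier cytochrome c, and complex IV hands them to oxygen. Complexes I, III and IV pump protons across the inner membrane, and complex V, the ATP synthase, lets the protons flow back to make ATP. Most subunits are nuclear genes, and a small set of core subunits is encoded in mitochondrial DNA. T cells depend on this machinery during activation and memory, and loss of mitochondrial fitness is a recognised feature of exhausted CD8 T cells in tumours. The 13 mitochondrially encoded subunits were not analysed here.

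Library totals ran from 21767045 to 32566456 counts, and any pair of libraries correlated at 0.884 to 0.945 over genes (log2 CPM). CD8 T cell markers were high in every library: Cd8a stood at 743 to 2020 CPM and Cd3e, a chain of the T cell receptor complex, at 580 to 1380 CPM. Markers of other cells were also detected. The 8 macrophage and monocyte markers summed to 1580 to 5000 CPM in WT core, 1410 to 4560 in KO core, 989 to 1600 in WT rim and 519 to 6710 in KO rim. None of these 8 was at 0 in any library. The 8 markers of lung epithelium and tumour summed to 96.5 to 487 CPM in WT core, 196 to 797 in KO core, 34.1 to 139 in WT rim and 63.1 to 672 in KO rim; Cdh1, an epithelial cadherin, reached 347 CPM and the surfactant gene Sftpc 273 CPM, while the transcription factor Nkx2-1 stayed at 0 to 0.322 CPM. Y-linked reads stood at 102 CPM in the WT core pool and at 444 to 512 CPM in F322 and O of KO core and KO rim, and at 0 to 0.175 CPM in the other libraries, so that WT rim had none with such reads. In bulk RNA, a smaller number of cells of a type and less RNA per cell cannot be told apart.

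Members differed widely in level. On a per-length scale (CPM per kilobase of the median coding transcript, here RPKM, averaged over 17 libraries), the median gene of complex V stood at 205, of complex IV at 163.9, of complex II at 163.5, of complex III at 110 and of complex I at 92.3. The assembly factors had a median of 16.0 RPKM. Atp5b, the catalytic beta subunit of the ATP synthase, was highest at 761 RPKM, followed by the alpha subunit Atp5a1 at 389, the complex IV scaffold subunit Cox4i1 at 381 and Cox6b1 at 368. Ndufa4, named for complex I but now placed with complex IV, led its name group at 294 RPKM. Levels of genes with near-identical copies are uncertain. Among the dropped pseudogene symbols, Ndufa12-ps averaged 16.9 CPM and Atp5pb-ps 15.5 CPM. The rule kept Cox6c2 and Ndufs6b, which RefSeq lists as pseudogenes, and the sources used here do not say how reads mapping to several places were counted.

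Several subunits have alternative isoforms. Cox6b1 stood at 368 RPKM against 2.47 RPKM for the testis form Cox6b2. The 3 Atp5g genes encode the same mature c subunit of the ATP synthase rotor, and Atp5g3 stood at 291, Atp5g2 at 81.1 and Atp5g1 at 27.1 RPKM. The order of Atp5g2 and Atp5g1 rests on the transcript lengths used, 586 and 2675.5 bases. In CPM, Atp5g1 was the higher, at 72.5 against 47.5 for Atp5g2 and 209 for Atp5g3. Cox4i2 and Ndufa4l2, isoforms known for induction by low oxygen, did not reach the level needed for inclusion, with means of 0.214 and 0.128 CPM. Cox7a1, the heart and muscle partner of Cox7a2, was at 0.504 CPM. The muscle isoform Cox6a2, by contrast, averaged 36.7 RPKM against 278 RPKM for Cox6a1 and came near it in some libraries, as described further on.

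Promoters were examined for 4 motifs known from genes of respiration, as exact matches on both strands in the 300 bases from 250 before to 50 after each gene's start in RefSeq (GRCm38.p6). Of the 91 genes, 75 matched an entry by name. The NRF1 palindrome occurred in 7 of them (9.33%) against 0.971% of all 32851 promoters. The YY1 motif occurred in 5 (6.67%) against 0.633%, the cAMP response element TGACGTCA in 5 (6.67%) against 1.79%, and the ETS and GABP motif CCGGAAGT in 5 (6.67%) against 3.89%. The 4 promoters below each hold 1 of the 4 motifs, with every match in capitals, and belong to genes that were higher in core-enriched cells over both genotypes. A match describes the letters only. The Cox8a promoter is chr19:7217567-7217866 (minus strand) and holds the ETS motif, read on the opposite strand, at 2 places; the Atp5k promoter is chr5:108434350-108434649 (minus strand) and holds the NRF1 motif; the Ndufa9 promoter is chr6:126849095-126849394 (minus strand) and holds the YY1 motif; and the Cycs promoter is chr6:50566520-50566819 (minus strand) and holds the cAMP response element. All are printed 5′ to 3′ on the gene's strand.
Cox8a: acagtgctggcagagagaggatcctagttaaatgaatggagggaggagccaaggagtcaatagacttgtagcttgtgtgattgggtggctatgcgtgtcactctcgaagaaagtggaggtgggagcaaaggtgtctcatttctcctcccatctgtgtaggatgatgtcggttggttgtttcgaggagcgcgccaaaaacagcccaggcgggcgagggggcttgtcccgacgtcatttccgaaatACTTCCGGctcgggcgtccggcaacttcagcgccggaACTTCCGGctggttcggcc
Atp5k: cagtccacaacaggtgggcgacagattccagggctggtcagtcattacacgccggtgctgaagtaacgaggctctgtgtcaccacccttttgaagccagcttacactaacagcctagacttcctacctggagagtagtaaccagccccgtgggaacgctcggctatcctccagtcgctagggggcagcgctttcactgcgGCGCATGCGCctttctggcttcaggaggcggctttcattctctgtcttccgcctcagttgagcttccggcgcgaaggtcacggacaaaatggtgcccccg
Ndufa9: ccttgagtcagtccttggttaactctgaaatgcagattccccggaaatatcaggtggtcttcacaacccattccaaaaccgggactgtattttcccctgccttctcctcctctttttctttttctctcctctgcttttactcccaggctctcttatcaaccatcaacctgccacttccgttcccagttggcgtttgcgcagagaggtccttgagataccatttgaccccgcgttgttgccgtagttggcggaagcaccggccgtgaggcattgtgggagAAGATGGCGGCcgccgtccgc
Cycs: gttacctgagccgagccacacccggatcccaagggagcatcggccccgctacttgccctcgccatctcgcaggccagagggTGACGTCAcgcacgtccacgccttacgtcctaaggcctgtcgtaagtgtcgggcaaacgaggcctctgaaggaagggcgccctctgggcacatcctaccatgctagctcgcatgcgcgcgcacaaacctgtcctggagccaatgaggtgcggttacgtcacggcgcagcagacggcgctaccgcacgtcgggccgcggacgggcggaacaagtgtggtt

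The genes together took a larger share of the library in core-enriched than in rim-enriched WT cells. In WT core they took 1.21%, 1.33%, 1.31%, 1.22% and 1.32% of all counts (mean 1.28 ± 0.0557, SD, n = 5), and in WT rim 1.01% and 0.951% (mean 0.978, n = 2). KO core libraries had 1.09% to 1.31% (mean 1.19 ± 0.0900, SD, n = 6) and KO rim libraries 1.09%, 0.978%, 0.987% and 1.16% (mean 1.05 ± 0.0876, SD, n = 4). WT core and WT rim did not overlap, whereas KO rim O, at 1.16%, lay inside the KO core range.

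**Figure D1:**
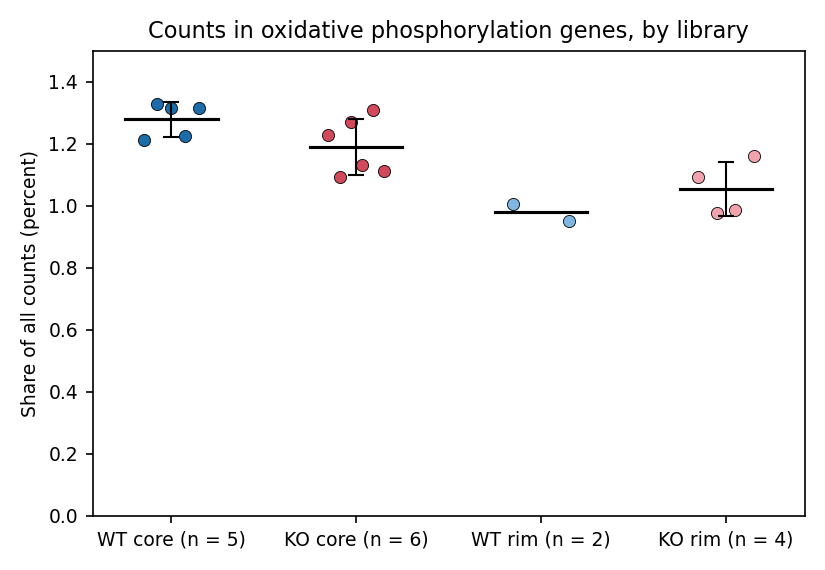
Share of each library's counts, in percent, that fell in the 91 genes. Each point is 1 library, long bars are group means and error bars are SD where a group has more than 2 libraries. WT core points sit between 1.21% and 1.33%, above both WT rim points at 0.951% and 1.01%.

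The core against rim comparison in WT asks how cells of macroscopic nodules differ from those of parenchymal nodules. Of 91 genes, 10 were higher in core and none lower in edgeR's quasi-likelihood test (Benjamini-Hochberg adjusted p under 0.05 over 20137 genes), by 1.46-fold to 1.74-fold. Of all genes tested 3.86% were called, and 2.1% were called as higher in core. The median log2 fold change was 0.40 for the 91 genes and 0.03 for all genes, and 83 of 91 were positive against 51.7% of all genes. In 67 of 91 (73.6%), all 5 core libraries lay above both rim libraries, against 11.2% of all genes; none of the 91 had the reverse order, against 8.52% of all genes. The calls rest on few rim libraries: with WT rim H874 left out no gene of the 91 was called, with WT rim H877 left out 2 were, without WT core H719 3 and without WT core H873 4, while the median moved only between 0.36 and 0.44 over all libraries left out in turn. No gene of the 91 was called either without the 5 libraries with Y-linked reads. The only WT library among these is the WT core pool, and leaving it out alone left 8 called. The rest are KO libraries.

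In complex I, all 39 genes had positive values (median log2 fold change 0.34) and 3 rose in WT core. The genes were grouped by name, so Ndufa4 and the pseudogene Ndufs6b are counted here and among the accessory subunits. Ndufa12, an accessory subunit added late in assembly, stood at 41.7, 55.0, 43.8, 45.4 and 45.7 CPM in WT core and at 24.0 and 27.4 CPM in WT rim. Every core library was higher than both rim libraries, and the difference was 0.80 on the log2 scale (SE 0.177, edgeR adjusted p = 0.0213). Ndufc2, a small membrane arm subunit, stood at 80.0, 86.8, 82.3, 72.0 and 72.4 CPM in WT core against 48.7 and 40.4 in WT rim. Its groups did not overlap either (log2 fold change 0.77, SE 0.179, edgeR adjusted p = 0.0263). Ndufb3, another membrane arm subunit, was the third to rise (log2 fold change 0.60, SE 0.135, edgeR adjusted p = 0.0227). The 7 catalytic subunits, among them those with the flavin and the iron-sulphur clusters, had a median of 0.18; edgeR called none and 2 had an unadjusted p under 0.05 (28.6%, against 18% of all genes in this comparison), while the 32 accessory subunits had a median of 0.38; the difference between these sets was not tested.

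Complex II, shared with the citric acid cycle, had 4 of 4 positive values and no edgeR call in WT, with 3 genes at an unadjusted p under 0.05, against 18% of all genes. Sdhc, a membrane anchor, stood at 107, 106, 104, 105 and 97.5 CPM in WT core and 74.2 and 72.4 in WT rim. These ranges were apart, but the difference of 0.45 on the log2 scale (SE 0.129) had an edgeR adjusted p of 0.0613. Sdhb, the iron-sulphur subunit, stood at 225 to 274 CPM in WT core and at 141 and 212 in WT rim (log2 fold change 0.42, SE 0.141, edgeR adjusted p = 0.111). Sdha, the flavoprotein that oxidises succinate, and Sdhd, the other anchor, had log2 fold changes of 0.22 (SE 0.117) and 0.31 (SE 0.124).

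In complex III, Uqcrb, a small subunit of the ubiquinone-binding region, was the 1 called gene of 8. It stood at 167, 187, 164.1, 165 and 162 CPM in WT core and at 109 and 103 CPM in WT rim. Both rim libraries were far under the core range (log2 fold change 0.63, SE 0.168, edgeR adjusted p = 0.0473). Uqcrc1, a core protein of the complex and its highest gene by CPM, differed by 0.24 on the log2 scale (SE 0.108, edgeR adjusted p = 0.239). Uqcrfs1, the Rieske iron-sulphur protein that passes electrons towards cytochrome c, was the exception, with a negative value of -0.48 (SE 0.328). In WT core it ranged over 57.4, 164.3, 94.5, 45.8 and 111 CPM, a wider spread than in the other groups, and rim values of 131 and 124 CPM fell inside it. Cytochrome c itself (Cycs) stood at 74.0, 94.9, 84.0, 81.6 and 83.1 CPM in WT core and at 61.2 and 52.1 in WT rim, with no overlap (log2 fold change 0.51, SE 0.158, edgeR adjusted p = 0.0848).

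In complex IV, 2 of 14 genes rose and 11 had positive values (median 0.47). Cox8a, one of the smallest subunits, stood at 193, 225, 214, 194 and 216 CPM in WT core and at 132 and 126 in WT rim (log2 fold change 0.64, SE 0.147, edgeR adjusted p = 0.0249). Cox6b1, which sits at the contact between the monomers of the complex IV dimer, stood at 196, 233, 207, 204 and 209 CPM in WT core and at 129 and 139 in WT rim (log2 fold change 0.60, SE 0.156, edgeR adjusted p = 0.0426). For both genes the core and rim libraries were apart. Cox7a2l, a relative of Cox7a2 that joins complexes III and IV into supercomplexes, went the other way without passing the test. It stood at 76.3 to 93.6 CPM in WT core and at 149 and 71.6 CPM in WT rim, so that 1 rim library was high and the other below the core range (log2 fold change -0.46, SE 0.239, edgeR adjusted p = 0.331).

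Complex V had 4 called genes of 17 and 16 positive values (median 0.48). Atp5j, coupling factor 6 of the peripheral stalk, stood at 192, 256, 238, 190 and 210 CPM in WT core and at 123 and 133 in WT rim (log2 fold change 0.71, SE 0.147, edgeR adjusted p = 0.0163). Atp5pb, subunit b of the same stalk, rose as well (log2 fold change 0.54, SE 0.138, edgeR adjusted p = 0.0378). Of the c ring genes, Atp5g3 stood at 224 to 266 CPM in WT core and at 180 and 126 in WT rim (log2 fold change 0.64, SE 0.154, edgeR adjusted p = 0.0307). Atp5g1 stood at 77.6 to 89.8 against 57.7 and 49.0 CPM (log2 fold change 0.62, SE 0.146, edgeR adjusted p = 0.0269). For these c ring genes no rim library reached the core range. The 5 genes of the catalytic F1 head had no edgeR call, 4 had an unadjusted p under 0.05 (against 18% of all genes) and their median was 0.31; Atp5b stood at 1507, 1593, 1682, 1643 and 1635 CPM in WT core and 1324 and 1163 in WT rim (log2 fold change 0.33, SE 0.104, edgeR adjusted p = 0.0955). Atp5h, subunit d of the peripheral stalk, was the only gene of the complex with a negative value (-0.05, SE 0.105).

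**Figure D2:**
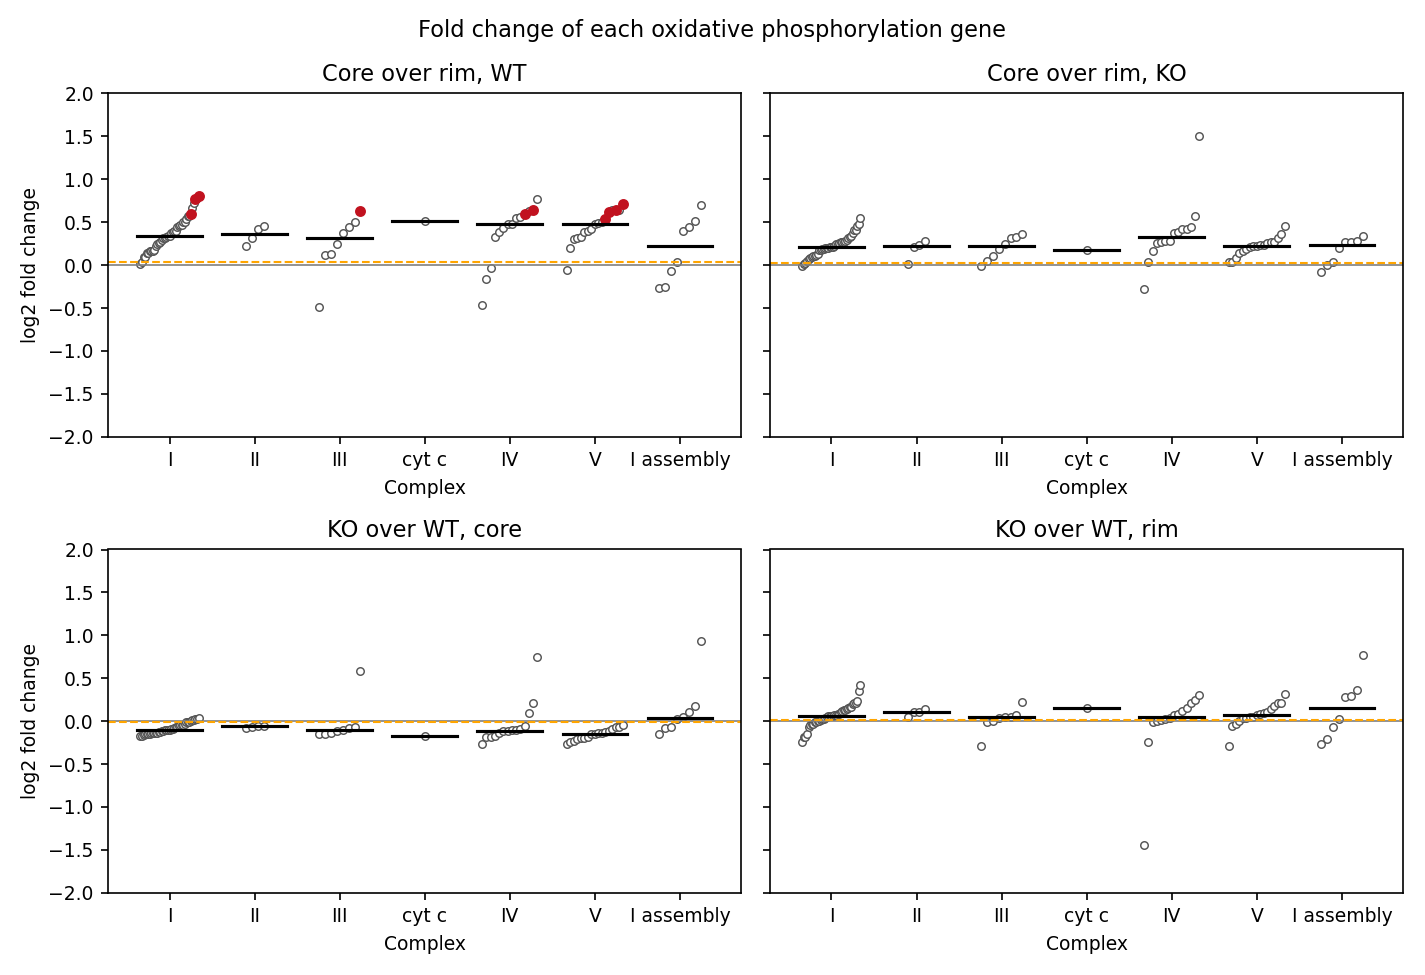
Log2 fold change of each of the 91 genes (points) by complex in 4 comparisons, with red points for genes called at an adjusted p under 0.05, black bars for the median of each complex and a dashed line for the median of all genes tested. In WT core over rim 10 points are red and the black bars lie between 0.22 and 0.51, while the other panels have no red point.

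In KO, the same site comparison had mostly positive values with a smaller median and no call. Of 91 genes, 86 had positive values (94.5%, against 52.7% of all genes) and the median log2 fold change was 0.23 against 0.03 for all genes. With edgeR, 0 of 91 genes and 0 of 20137 genes (0 percent) passed; 29 of 91 had an unadjusted p under 0.05, all higher in core, beside 7.95% of all genes. Only Ndufa8 and Sdhb had all 6 core libraries above all 4 rim libraries, 2.2% of the genes against 0.819% of all genes. Ndufa12 stood at 36.2 to 53.1 CPM in KO core (median 45.0) and at 30.3, 29.9, 24.3 and 36.6 in KO rim. The groups met only through the highest rim library, KO rim O, which passed the lowest core library (log2 fold change 0.55, SE 0.132, edgeR adjusted p = 0.62). DESeq2, run as an alternative, called Ndufa12 alone of the 91 in this comparison, beside 0.198% of the genes it tested. Sdhc in KO rim read 84.3, 70.3, 69.2 and 100 CPM against 87.0 to 108 in KO core (median 99.7), and the log2 fold change there was 0.29 (SE 0.0976, edgeR adjusted p = 0.62).

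Averaging the site difference of WT and of KO in the same fit, a comparison added after the results above were seen, gave 33 of 91 genes higher in core and none lower (36.3%), by 1.20-fold to 1.60-fold. Over all genes, 6.37% were called and 3.31% were higher in core. The median log2 fold change was 0.33 for the 91 genes and 0.05 for all genes. All 10 genes called in WT were among the 33, and each of the 33 was positive in WT and in KO. The WT site difference enters this average, so the overlap with the WT calls is no separate support. The number called was 3 without the 5 libraries with Y-linked reads and 19 with limma voom quality weights. It was 1 with WT rim H874 left out, 15 without WT rim H877, 20 without KO rim F322 and 41 without KO rim O, with medians from 0.30 to 0.35 over all libraries left out in turn.

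The calls were spread over every complex: 14 of 39 genes in complex I, 2 of 4 in complex II, 2 of 8 in complex III, Cycs (log2 fold change 0.35, SE 0.0989, edgeR adjusted p = 0.0469), 6 of 14 in complex IV and 7 of 17 in complex V. Of the 8 assembly factors only Ndufaf3 was called (0.49, SE 0.141, edgeR adjusted p = 0.0494). In complex I, 2 of 7 catalytic subunits were called, Ndufv2 (0.36) and Ndufs8 (0.30), and 12 of 32 accessory subunits, led by Ndufa12 (0.67, SE 0.111, edgeR adjusted p = 0.00353) and Ndufc1 (0.63, SE 0.141, edgeR adjusted p = 0.0147). In complex II the called genes were Sdhc (0.37, edgeR adjusted p = 0.0131) and Sdhb (0.33, edgeR adjusted p = 0.0370). Uqcrb and Uqcr11, both small complex III subunits, each had 0.44. In complex IV, Cox7c had the highest value of the 6 called, 0.53 (SE 0.130, edgeR adjusted p = 0.0236). In complex V, edgeR called 3 of 3 c ring genes, 3 of 4 peripheral stalk genes, 1 of 5 other membrane subunits (Atp5k, 0.55, edgeR adjusted p = 0.0202) and 0 of 5 F1 head genes. The F1 head had a median of 0.20, and 4 of its genes had an unadjusted p under 0.05, against 21.3% of all genes. The differences between these parts were not tested. Negative values belonged to 5 genes, none called: Cox7a2l (-0.37, SE 0.152, edgeR adjusted p = 0.166), Uqcrfs1, Ndufaf5, Ndufaf4 and Ndufaf8.

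**Figure D3:**
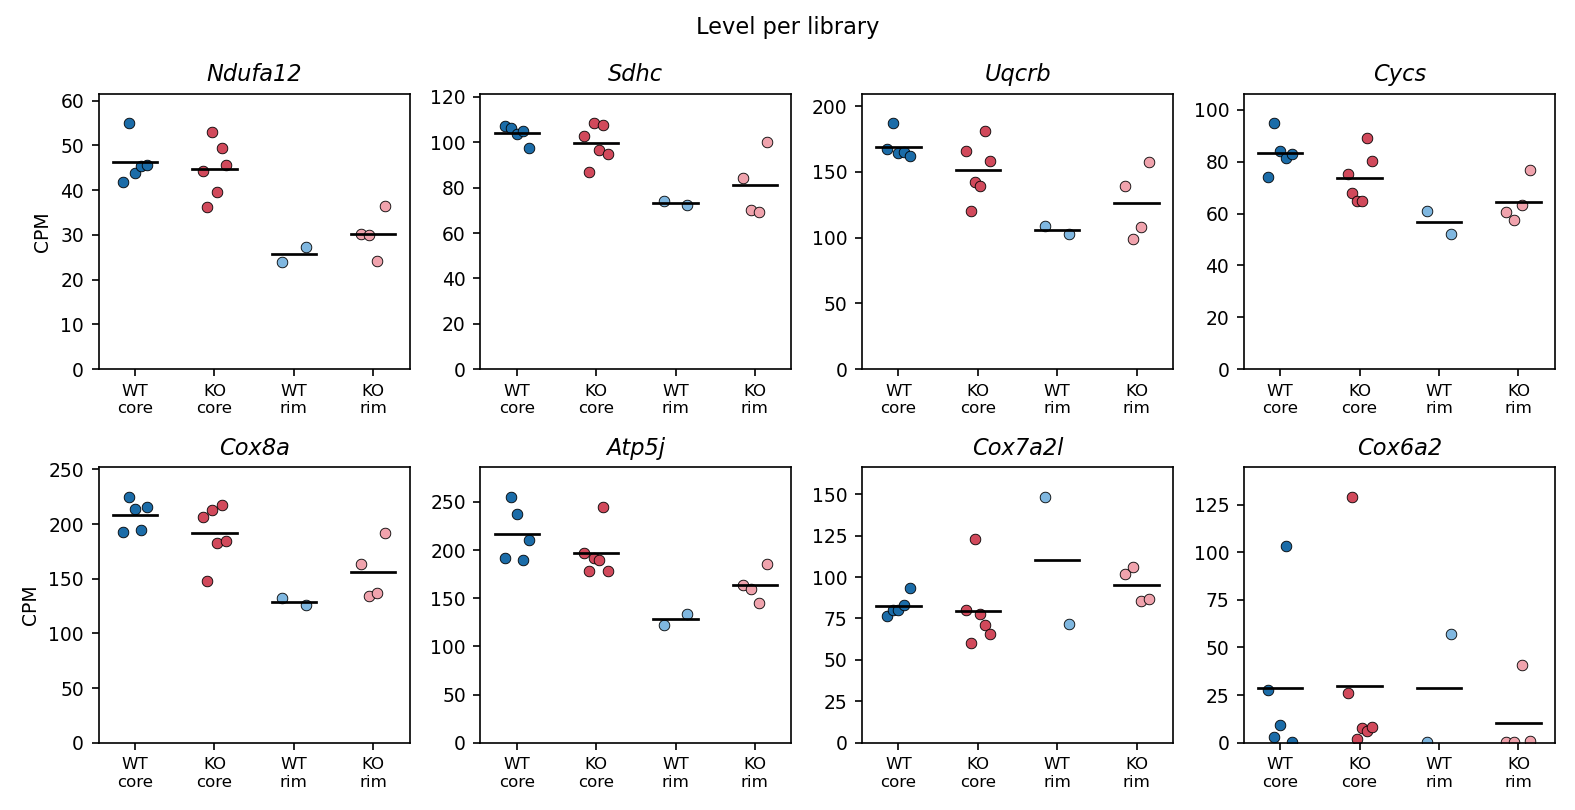
CPM of 8 genes in each library, by group, with bars at the group means and axes that start at 0. Rim points of Ndufa12, Sdhc, Uqcrb, Cycs, Cox8a and Atp5j are mostly below the core points, and Cox7a2l has 1 high WT rim library at 149 CPM. Cox6a2 has 1 library far above the others in WT core, KO core and KO rim. Its WT rim libraries stand at 0.433 and 57.2 CPM.

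KO against WT, the comparison of mice lacking endothelial PDL1 with controls, gave no call at either site. In core, 0 of 91 genes passed (0 percent of all genes) and 3 had an unadjusted p under 0.05 (3.3%, against 6.18% of all genes). DESeq2 also called 0 of the 91, beside 0.0482% of the genes it tested. The median log2 fold change was -0.10 (all genes -0.01), and 15 of 91 values were positive. The direction was uniform in complex V, where all 17 values were negative (median -0.15). The 3 genes were Cox6a1 (-0.27, SE 0.103), the Rieske protein gene Uqcrfs1 (0.58, SE 0.245) and the assembly factor Ndufaf6 (0.93, SE 0.411), each with an edgeR adjusted p of 0.796. Cox6a1 read 155, 198, 179, 203 and 184 CPM in WT core and 129 to 181 CPM in KO core (median 148), with overlap. Uqcrfs1 read 125 to 162 CPM in KO core (median 140), inside the wide WT core spread of 45.8 to 164.3 CPM. Atp5b read 1395 to 1539 CPM in KO core, with the highest KO library inside the WT range of 1507 to 1682 (log2 fold change -0.15, SE 0.0741, edgeR adjusted p = 0.808). None of the 91 genes had groups apart in core, against 0.422% of all genes. Some marker lists leaned to lower values in KO as well. Positive were 1 of 15 cell cycle, 0 of 8 macrophage, 0 of 5 neutrophil, 0 of 5 B and plasma cell and 0 of 5 red blood cell markers. Lung epithelial and tumour markers (7 positive) and fibroblast markers (4 of 5) leaned the other way, and the remaining lists were mixed. None was called, and their part in the values of the 91 genes was not tested.

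In rim, 0 of 91 genes passed (0 percent of all genes) and 2 had an unadjusted p under 0.05 (2.2%, against 7.35% of all genes). With DESeq2 0 of the 91 passed as well, beside 1.7% of the genes tested. The median was 0.06 (all genes 0.01) and 68 of 91 values were positive. Atp5j read 163.5, 159.6, 145 and 185 CPM in KO rim and 123 and 133 in WT rim, so that all KO libraries were higher (log2 fold change 0.32, SE 0.148, edgeR adjusted p = 0.672). Atp5h read 208, 204, 182 and 211 CPM in KO rim and 217 and 262 in WT rim, all lower in KO (log2 fold change -0.29, SE 0.108, edgeR adjusted p = 0.59). In all, 8 genes had every KO rim library above both WT rim libraries, among them Cox8a, Ndufab1 and Ndufb3 (8.79%, against 7.55% of all genes), and 2 had the reverse order (2.2%, against 5.94%). Some marker levels differed in this comparison. All 15 cell cycle genes were positive (median 1.25, 14 at an unadjusted p under 0.05). All 8 macrophage markers were positive (median 1.97, 4 at that level). So were the 7 lung epithelial and tumour markers tested (median 3.15, 1 at that level). None of these markers was called, and their part in the values of the 91 genes was not tested. The macrophage and lung lists were not high in every KO rim library. Mean log2 CPM of the macrophage markers was 7.22 in F15 and 8.14 in O of KO rim. It was 5.385 in F322 and 4.82 in F86, against 4.995 and 5.298 in WT rim. The lung epithelial and tumour mean was 4.42 in O, 0.693 in F322 and -0.292 in F86, against 0.229 and 1.023 in WT rim. For both lists F15 lay between O and F322. The rim libraries of WT enter both this comparison and the site comparison in WT.

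The difference between the genotype effects at the sites, which equals the difference between the site effects of WT and KO, was tested directly. With edgeR no gene of the 91 passed (0 percent of all genes), and 5 had an unadjusted p under 0.05 (5.49%, against 7.68% of all genes). DESeq2 called 0 of the 91 here, beside 0.989% of the genes tested. The median was 0.17 (all genes 0.01), with 75 of 91 values positive, that is a larger core over rim value in WT than in KO. The 5 genes were Atp5j (0.45, SE 0.180), Ndufc2 (0.50, SE 0.218), Atp5b (0.29, SE 0.130), Atp5g1 (0.40, SE 0.179) and Atp5g3 (0.41, SE 0.189), with edgeR adjusted p from 0.592 to 0.646. Without KO rim O the median of this difference was 0.07. All 15 cell cycle genes (median 1.45, 14 at an unadjusted p under 0.05) and all 8 macrophage markers (median 2.43, 4 at that level) were positive too, none called, and their part was not tested. A smaller site effect in KO was therefore not shown for any gene.

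**Figure D4:**
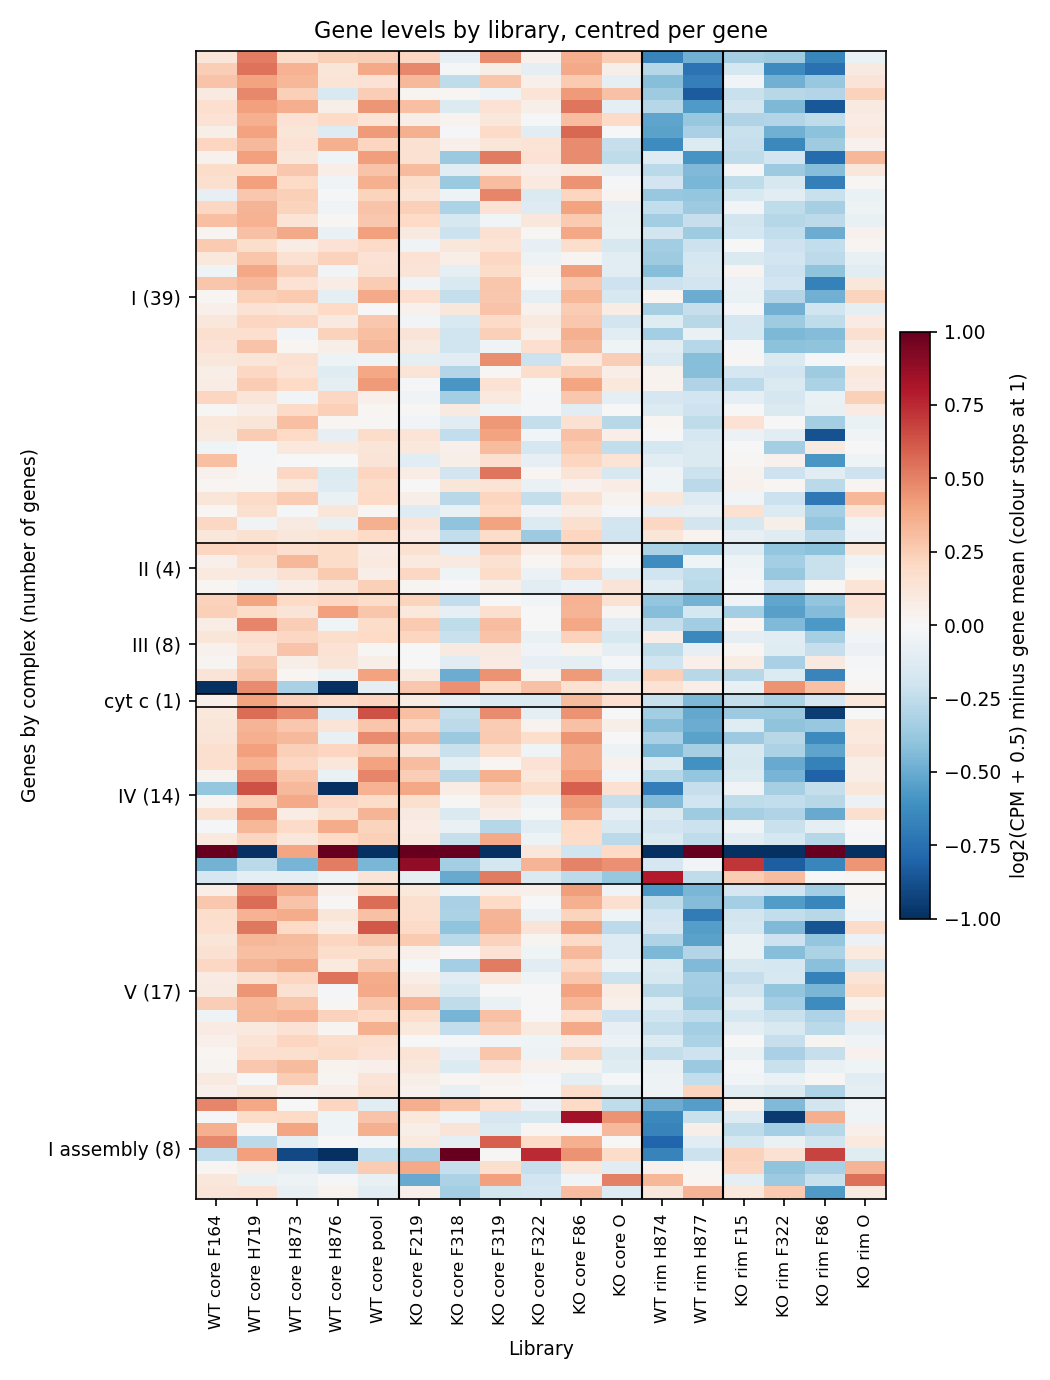
Level of each of the 91 genes (rows, ordered by complex and within it by the WT core over rim value) in each library (columns, by group), as log2(CPM + 0.5) minus the gene's mean over 17 libraries; red is above the mean and blue below. Most rows are red in WT core and blue in WT rim, KO rim O is paler than the other rim libraries, and Cox6a2 and Uqcrfs1 vary within groups.

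Cox6a2, the heart and skeletal muscle isoform of subunit 6a, varied most, with an SD of 2.87 on the log2 scale over the 17 libraries against 0.104 for Atp5a1, the least variable gene. It stood at 27.8, 2.84, 9.46, 104 and 0.578 CPM in WT core, 2.11 to 129 in KO core (median 7.93), 0.433 and 57.2 in WT rim, and 0.23, 0.38, 40.8 and 0.843 in KO rim. High libraries occurred in all 4 groups, and no comparison called the gene. Its partner Cox6a1 stayed between 129 and 203 CPM. Siglech, a surface marker of plasmacytoid dendritic cells, separated the libraries in the same way: the 6 libraries highest in Cox6a2 (26.4 to 129 CPM) were the 6 highest in Siglech (232 to 1370 CPM), and the other 11 had at most 9.46 CPM of Cox6a2 and 0.758 to 138 CPM of Siglech. The 5 dendritic cell markers summed to 43.7 to 1390 CPM in WT core, 51.0 to 1630 in KO core, 26.2 to 1020 in WT rim and 19.4 to 586 in KO rim. Siglech is among these 5 and reached 1150, 1370, 823 and 492 CPM in these groups, so the highest sums largely repeat it. Over all libraries Flt3 reached 193 CPM, Xcr1 81.0, Clec9a 32.3 and Zbtb46 21.1. Siglech was set beside Cox6a2 after the values were seen, and its part in the Cox6a2 level was not tested.

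Other genes of mitochondrial energy metabolism are given by list; the lists were not tested against each other. In the comparison over both genotypes, 3 of 7 carriers and channels were higher in core and none lower (median 0.26), among them Atpif1, the inhibitor of the ATP synthase (0.69, SE 0.150, edgeR adjusted p = 0.0129), and Vdac1, the outer membrane channel (0.54, SE 0.104, edgeR adjusted p = 0.00769). Of 14 citric acid cycle genes, 2 were higher, Mdh2 (0.31) and Cs (0.26), with a median of 0.15. Among 38 further assembly factors 3 were higher and 1 lower (median 0.07), led by Uqcc2, which helps to build complex III (0.66, edgeR adjusted p = 0.00649), and in the other direction by Coa7 (-0.92, edgeR adjusted p = 0.0240). Of 78 mitochondrial ribosomal protein genes 14 were higher and 1 lower (median 0.16), whereas of 100 cytosolic ones 1 was higher (median -0.06).

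Of 15 regulators of mitochondrial biogenesis, 4 were lower in core over both genotypes and none higher (median -0.18). In KO alone none was called, 4 of 15 had positive values, and of 4 with an unadjusted p under 0.05 1 was positive. In WT 1 was called, as lower. This was Tfam, whose product packages mitochondrial DNA and takes part in its transcription. Tfam averaged 70.8 CPM in WT core, 104 in WT rim, 71.7 in KO core and 88.8 in KO rim (log2 fold change in WT -0.60, SE 0.159, edgeR adjusted p = 0.0457). Over both genotypes Polg2, an accessory subunit of the mitochondrial DNA polymerase, had -0.88 (SE 0.190, edgeR adjusted p = 0.0128), and the coactivator Ppargc1b -0.78 (SE 0.220, edgeR adjusted p = 0.0431). Glycolysis genes had a larger median: 10 of 16 were higher in core over both genotypes (median 0.58), with Tpi1 at 1.66 (SE 0.185, edgeR adjusted p = 0.000754) and Pgk1 at 1.05 (SE 0.123, edgeR adjusted p = 0.000774).

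Other features of the libraries moved with the site difference. The mean log2 CPM of 15 cell cycle genes was 6.60 to 7.54 in WT core and 5.03 to 5.38 in WT rim, and 6.48 to 7.48 in KO core and 5.63 to 6.82 in KO rim; all 15 had positive core over rim values in WT and 14 were called, while in KO 14 were positive and none called. The 8 macrophage markers were all positive in WT (median 2.04) and 2 of them were called, but in KO 4 of 8 were positive (median -0.09). Positive values in WT were also seen for 7 of 7 tested lung epithelial and tumour markers (1 at an unadjusted p under 0.05), 5 of 5 fibroblast markers (median 1.70) and 5 of 5 neutrophil markers (median 1.14, 1 at that level), none called. In KO, 4 of 5 B and plasma cell markers were negative with an unadjusted p under 0.05 (median of the list -1.58). The 7 CD8 T cell markers had mean log2 CPM of 9.24 to 10.2 in core and 9.67 to 9.99 in rim libraries, 4 were positive in WT, 1 of them at an unadjusted p under 0.05, and none was called. Cd8a stood at 862 to 2020 CPM in WT core and at 743 and 841 in WT rim, with no overlap. Other markers of the list did not share this: Cd8b1 stood at 810 to 1610 CPM in WT core and at 1400 and 1600 in WT rim. Cd2 stood at 384 to 661 CPM in WT core and at 605 and 702 in WT rim. The part of each of these lists alone in the site difference was not tested. With the mean level of all other-cell markers as a covariate, 1 of the 10 genes called in WT and 18 of the 33 called over both genotypes were still called.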

How the data were processed

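The authors deposited 1 table of raw counts per gene symbol for 17 libraries; all columns were mapped to samples by the identifiers in their labels. Per the submitters' processing notes, the tools were Subread 2.0.0 with featureCounts, HISAT2, Bowtie2 2.4.5 and cutadapt 3.2, and the builds GRCm38 and mm10, with no settings or order; the sources used here do not state strandedness. The members and gene lists were chosen with earlier results of these data known.

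Counts were fitted in one edgeR 4.0.16 quasi-likelihood model (R 4.3.3) with 4 group means, TMM scaling and filterByExpr, over 20137 genes. Adjusted p is Benjamini-Hochberg over all of them, and a gene was called under 0.05. SE is the log2 fold change divided by the square root of its F statistic. CPM in the text used library totals without TMM. RPKM used GENCODE M21 basic coding transcripts; promoters came from RefSeq.

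Alternatives were DESeq2 1.42.0, limma 3.58.1 voom with quality weights or the identifier as a block, other scalings, no count filter, a fit of the 2 groups compared, 5 libraries with Y-linked reads left out, a marker covariate, and each library left out in turn. The identifiers shared by KO core and KO rim were not used to pair the libraries in the main fit.

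For each complex and comparison a rule selected up to 2 called genes with the largest change, or the gene with the smallest p. The highest gene of each complex, isoform sets, the Sdh genes and Cycs were added. These 34 genes are the named genes of the checks below. The text does not give every selected gene for every comparison, and Ndufb11 and Ndufaf7 are not described. For each other list and comparison it names up to 2 called genes. Ndufb3, Atp5pb, Cox7a2l, Ndufa8, Ndufa9, Ndufv2, Ndufs8, Ndufaf5, Ndufaf8, Atp5a1, Cox5a, Cyc1 and Siglech were named after their values were seen. For the comparison over both genotypes, which was added, the same rule was used.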

Additional observations from a re-analysis of the deposited data

Results flagged for a closer look

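Of 105 groups of values checked for the named genes, 8 had 1 library far from the rest of its group; chance flags about 5 percent of groups. Cox6a2 accounted for 3 of them: WT core H876 at 104 CPM against 0.578 to 27.8 CPM in the other libraries, KO core F318 at 129 CPM against 2.11 to 26.4, and KO rim F86 at 40.8 CPM against 0.23 to 0.843. Cox6b2 stood at 1.61 CPM in WT core H876 against 0.571 to 0.73 CPM. Uqcrb stood at 187 CPM in WT core H719 against 162 to 167. Atp5j stood at 245 CPM in KO core F86 against 178 to 197. Ndufab1 stood at 69.9 CPM in KO rim O against 48.4 to 51.0, and Atp5g2 at 34.7 CPM in KO rim F86 against 41.3 to 41.8.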

How the results depend on the processing

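No value of the 34 named genes changed sign under an alternative where it was called: of 1199 values, 1041 kept their side of the threshold, 152 fell out of the call and 6 entered it. All of the 152 belonged to genes called in the main fit. The 1041 include many values of genes not called there. Their staying uncalled says nothing of how stable the calls are. Against the 10 genes called for core over rim in WT, DESeq2 gave 29 calls, quality weights 0, the fit of the 2 groups compared 0, leaving out the libraries with Y-linked reads 0, and the marker covariate 1. Leaving out 1 library at a time gave 0 to 13 calls. For both genotypes, against 33 calls, quality weights gave 19, leaving out the libraries with Y-linked reads 3, and the marker covariate 18; leaving out 1 library at a time gave 1 to 41. In KO, DESeq2 gave 1 call for core over rim. The median difference of the genotype effects was 0.17; it was 0.0434 without libraries with Y-linked reads and 0.0654 to 0.22 with 1 library left out. The cause of these changes was not tested.

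With the identifier as a replicate block, limma voom called 7 genes in WT and 25 over both genotypes, the same numbers as voom without the block, and a fit of KO libraries alone with the block called 0. Same-numbered KO libraries had correlations of their deviations of 0.0721, 0.0449 and 0.0818. KO rim and KO core libraries with different identifiers had -0.201 to 0.242. F322 and O had Y-linked reads at both sites, and F86 at neither. So few shared identifiers cannot show whether the libraries are paired, and the main fit did not take them as pairs. The mean level was at least 5 CPM in 89 of the 91 genes, so low depth touches mainly Cox6b2 and Ndufaf6.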

Other observations

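Genes with shorter transcripts had the higher medians for core over rim. Split at the median transcript length of 745 bases, the 46 shorter genes had a median log2 fold change of 0.46 in WT and 0.27 in KO, and the 45 longer ones 0.32 and 0.18. All 46 shorter genes had positive values in KO. The difference between the length classes was not tested.

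Cox5a, a complex IV subunit, and Uqcrfs1 were low in the same WT core libraries. Cox5a stood at 138, 283, 228, 82.3 and 231 CPM in WT core F164, H719, H873, H876 and the pool, and Uqcrfs1 at 57.4, 164.3, 94.5, 45.8 and 111 CPM. Both were lowest in H876, followed by F164. Cyc1, a subunit outside the rule, had log2 CPM of 5.43 in H876 and 5.98 in F164, against 6.54 to 6.85 in the other WT core libraries. H876 and F164 also had the lowest CD8 T cell marker means of WT core (9.24 and 9.62). Their other-cell marker means were the highest of WT core (4.354 and 4.345). KO core F219 and KO rim O had higher other-cell marker means (4.484 and 4.597). Cox5a stood there at 238 and 197 CPM, and Uqcrfs1 at 143 and 120 CPM. KO core F318 had the lowest CD8 T cell marker mean of KO core (9.47). Its Uqcrfs1, at 162 CPM, was the highest of that group, and its Cox5a, at 191 CPM, the lowest. The part of these features was not tested.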
